A study of Homo sapiens with 6 samples.

Results

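The genes described here encode proteins of the nuclear lamina and chromatin proteins whose levels or positions are known to shift in senescent cells: the lamins LMNB1, LMNB2 and LMNA, the lamina tethers LBR and TMPO, the high mobility group genes HMGB1, HMGB2, HMGA1 and HMGA2, and the histone variant gene H2AX. They were taken by gene name from the deposited count table, which gave 10 of its 62754 rows. All 10 had at least 10 counts in all 6 libraries, so none was low, and all 10 were among the 19874 genes with enough counts to be tested. RNA was sequenced from HK-2 cells, an immortalised human proximal tubule epithelial line, in 3 libraries per group. Every group received Cisplatin, together with siRNA against NAT10 (the group CP+siNAT10) or a control siRNA with no target (the group CP+siNC), so the comparison asks what silencing NAT10 changes in Cisplatin-treated tubular cells. The study's methods choose 20 μM for 24 hours for these cells, while the labels state no dose or time. No group without Cisplatin is compared here, and transient siRNA lowers an mRNA without removing it. Total counts were 19321665, 21602988 and 19464027 in CP+siNC and 20793709, 21531774 and 25192736 in CP+siNAT10.

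The lamina is a meshwork of A-type and B-type lamins beneath the inner nuclear membrane, where membrane proteins such as LBR and the LAP2 products of TMPO hold heterochromatin at the nuclear edge. In many senescent cells lamin B1 and LBR decline, HMGB proteins leave chromatin, HMGA proteins gather in condensed foci, and phosphorylated H2AX marks persistent DNA breaks. Cisplatin crosslinks DNA and is toxic to proximal tubule cells, in which DNA damage and senescence are studied as parts of kidney injury. Transcript levels say nothing of protein amount, phosphorylation or position in the nucleus.

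NAT10, the targeted RNA acetyltransferase gene (ENSG00000135372, chromosome 11 from 34105617 to 34147670, GRCh38), was read at 75.8, 71.4 and 73.2 CPM in CP+siNC and at 41.3, 40.5 and 42.4 CPM in CP+siNAT10. CPM here is the usual depth-scaled count, with library sizes adjusted by the TMM method. All 3 libraries labelled siNAT10 lay below all 3 labelled siNC, at 56.4% of the control mean. The log2 fold change was -0.82 (SE 0.0426, edgeR quasi-likelihood adjusted p = 2.79e-15). The RNA helicase gene DDX17, which the study links to NAT10, was at 246 ± 2.14 CPM in CP+siNC and 227 ± 5.00 CPM in CP+siNAT10 (SD, n = 3 libraries each), a log2 fold change of -0.12 (edgeR adjusted p = 0.00439). This call was lost when the change was tested against a fold of 1.2 (adjusted p = 1, with a range of 0.00259 to 1 over all alternatives).

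The label of the cells was compared with marker genes. Of 11 markers of the differentiated proximal tubule, 5 had enough counts to be tested. SLC22A6 had no count in any library, and LRP2 (0.0156 CPM), CUBN (0.103 CPM), SLC34A1 (0.220 CPM), ANPEP (0.0860 CPM) and HNF4A (0.0835 CPM) had means near 0 in CP+siNC. The marker of this list with the most counts was GGT1, at 33.2 CPM in CP+siNC and lower in CP+siNAT10, at 27.4 CPM. Of the 5 tested markers, 1 was higher, 2 were lower and 2 were not called. Among all tested genes, 21.8% were higher and 22.3% lower. SLC5A2 was the higher marker and SLC3A1 the other lower one, with log2 fold changes of 0.31 and -0.99. Several general epithelial and tubular injury markers were present in CP+siNC, with KRT8 at 1455 CPM, PAX8 at 31.4 CPM and HAVCR1 at 28.4 CPM. Others of this kind were low, with VCAM1 at 1.16 CPM, PAX2 at 0.638 CPM and CDH1 at 0.0510 CPM. Of the 9 tested markers of this kind, 3 were higher and 2 lower in CP+siNAT10, against 21.8% and 22.3% of all tested genes. The log2 fold changes were 0.59 for PAX8, 0.41 for HAVCR1, 0.31 for EPCAM, -0.36 for KRT18 and -0.17 for VIM, while KRT8 did not pass. The libraries thus carried some epithelial transcripts and PAX8 without most differentiated proximal tubule transcripts.

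Of 10 markers of fibroblasts, endothelium and leukocytes, 4 were tested and 3 were higher in CP+siNAT10, against 21.8% of all tested genes. Their summed level was 219.7, 210.1 and 227 CPM in CP+siNC and 302, 282 and 282 CPM in CP+siNAT10, with nearly all of the counts from CD68, a lysosomal protein gene used as a macrophage marker. The collagen gene COL1A1, a fibroblast marker, was present at 10.5 ± 0.536 CPM and rose to 13.6 ± 1.53 CPM (SD, n = 3 libraries each), with a log2 fold change of 0.38 (edgeR adjusted p = 0.000622). The other fibroblast and mural cell markers were low, with COL3A1 at 0.416 and 0.690 CPM and not called, PDGFRB at 0.352 and 0.133 CPM and not tested, and DCN near 0. VWF, CDH5, PECAM1 and the T cell gene CD3E were also low in both groups and not tested. The pan-leukocyte gene PTPRC was at 0.418 ± 0.0521 and 0.824 ± 0.446 CPM (SD, n = 3 libraries each) and was called higher (log2 fold change 0.96, edgeR adjusted p = 0.0411), from at most 29 counts per library, that highest count being in CP+siNAT10 replicate 2.

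With an adjusted p under 0.05, 9 of the 10 genes were called higher or lower in CP+siNAT10, against 44.1% of all tested genes. LMNB1, LMNB2, LMNA and H2AX were higher (4 of 10, against 21.8% of all tested genes), and LBR, TMPO, HMGB1, HMGB2 and HMGA2 were lower (5 of 10, against 22.3%). HMGA1 did not pass. None also had a log2 fold change over 1 in size, which 2.33% of all tested genes had. The groups did not overlap for 8 of the 10, against 51.4% of all tested genes. The median size of the log2 fold change was 0.20 over the 10 genes and 0.21 over all tested genes, and the signed medians were -0.09 and 0.01. The changes were therefore of ordinary size beside all tested genes, whereas the median size over all called genes was larger, at 0.34. The share called is read with the depth in mind, because the member counts, between 828 and 29931 per library, are high and replicates varied little (biological coefficient of variation 3.00%). Labels number the libraries of a group as cells without saying that they were separate cultures, so p-values measure only the spread between these samples, which may be technical. In RNA from whole cultures, fewer cells of a kind and less RNA per cell cannot be told apart.

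**Figure D1:**
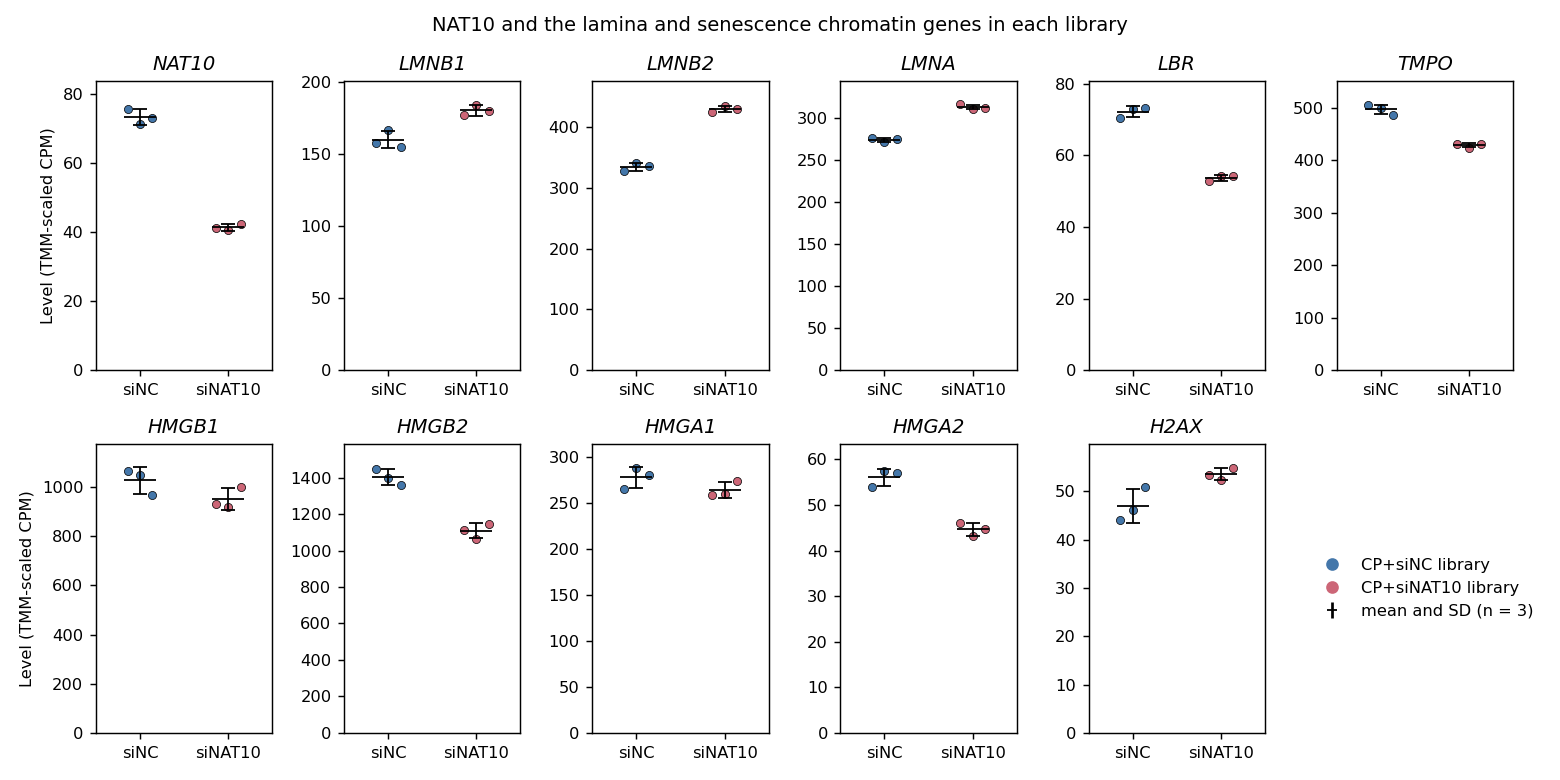
Each panel plots the level of 1 gene in TMM-scaled CPM (vertical axis, starting at 0) in the 3 CP+siNC (blue) and 3 CP+siNAT10 (red) libraries, with a bar for the mean and SD. NAT10, LBR, TMPO, HMGB2 and HMGA2 are lower in every CP+siNAT10 library, LMNB1, LMNB2, LMNA and H2AX are higher in every one, and HMGB1 and HMGA1 overlap.

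All 3 lamin genes rose with NAT10 siRNA. LMNB1 (ENSG00000113368, chromosome 5 from 126776623 to 126836571, GRCh38) encodes lamin B1, a farnesylated lamin whose loss is widely used as a senescence marker. Its level was 158, 166 and 155 CPM in CP+siNC and 177, 184 and 179.8 CPM in CP+siNAT10. The lowest CP+siNAT10 library, replicate 1, lay above the highest CP+siNC library, replicate 2. The log2 fold change was 0.17 (SE 0.0350, edgeR adjusted p = 0.00016). LMNB2 (ENSG00000176619, chromosome 19 from 2427638 to 2456959) encodes the other B-type lamin of most cells. In CP+siNC it stood at 328, 340.4 and 336 CPM, and in CP+siNAT10 at 425, 435 and 429 CPM. The gap between the groups was many times the spread within either of them, with a log2 fold change of 0.36 (SE 0.0321, edgeR adjusted p = 2.55e-10). LMNA (ENSG00000160789, chromosome 1 from 156082573 to 156139894) yields lamins A and C by splicing, which gene counts cannot separate. Its CP+siNC libraries were at 276, 271 and 274 CPM and its CP+siNAT10 libraries at 316, 310.5 and 312 CPM. No library of either group reached the other, and the log2 fold change was 0.19 (SE 0.0317, edgeR adjusted p = 1.11e-05).

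The tethers went the other way. LBR (ENSG00000143815, chromosome 1 from 225401502 to 225428855) encodes the lamin B receptor, an inner nuclear membrane protein that binds B-type lamins and heterochromatin and also acts as a sterol reductase. It was measured at 70.5, 73.1 and 73.2 CPM in CP+siNC and at 52.9, 54.2 and 54.3 CPM in CP+siNAT10. All CP+siNAT10 libraries were about equally low. LBR had the largest change of the 10 genes, with a log2 fold change of -0.43 (SE 0.0401, edgeR adjusted p = 7.48e-10). TMPO (ENSG00000120802, chromosome 12 from 98515579 to 98548957) encodes the LAP2 proteins, of which the membrane-bound forms bind lamin B and the soluble alpha form binds A-type lamins. Counts corresponded to 505, 499 and 487 CPM in CP+siNC and to 431, 424 and 432 CPM in CP+siNAT10. The groups were separate, with a log2 fold change of -0.21 (SE 0.0319, edgeR adjusted p = 2.72e-06). The antisense gene TMPO-AS1 overlaps TMPO and held 35.4% as many counts. It was lower as well, at 175 ± 5.23 CPM in CP+siNC and 153 ± 2.29 CPM in CP+siNAT10 (SD, n = 3 libraries each), with a log2 fold change of -0.20 (SE 0.0340, edgeR adjusted p = 2.38e-05). The kit kept strand, but the strand setting of the counting is not given in the sources used here, so reads of TMPO and TMPO-AS1 may not be fully separated.

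**Figure D2:**
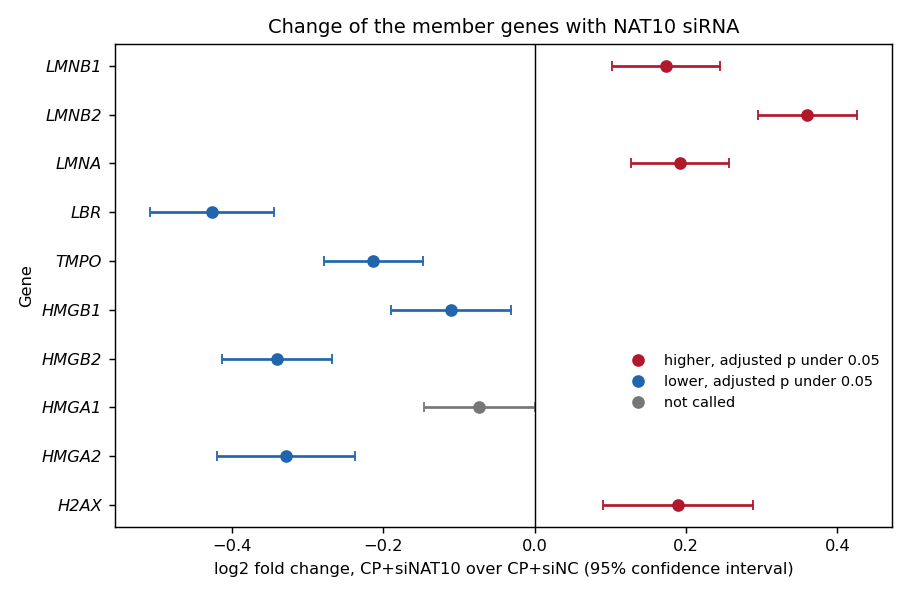
Points give the log2 fold change of each of the 10 genes (horizontal axis, CP+siNAT10 over CP+siNC) and bars its 95% confidence interval, in red for higher, blue for lower and grey for not called. The 3 lamins and H2AX lie above 0, LBR lies lowest at -0.43, and the interval of HMGA1 reaches from -0.15 to 0.00.

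The HMGB genes encode abundant DNA-bending proteins, which act in chromatin and, once released, as extracellular danger signals. HMGB2 (ENSG00000164104, chromosome 4 from 173331376 to 173334432), most abundant in dividing cells, was at 1449, 1398 and 1361 CPM in CP+siNC and at 1111, 1066 and 1147 CPM in CP+siNAT10. The highest CP+siNAT10 library remained well below the lowest CP+siNC library. Its log2 fold change was -0.34 (SE 0.0354, edgeR adjusted p = 5.06e-09). HMGB1 (ENSG00000189403, chromosome 13 from 30456704 to 30617597) gave 1065, 1049 and 965 CPM in CP+siNC and 932, 919.7 and 1001 CPM in CP+siNAT10. The groups overlapped, since CP+siNAT10 replicate 3 lay above CP+siNC replicate 3. The log2 fold change was -0.11 (SE 0.0386, edgeR adjusted p = 0.0211), close to the limit. The call did not hold without CP+siNC replicate 1 (adjusted p = 0.0906) or replicate 2 (0.0728), without CP+siNAT10 replicate 1 (0.0883) or replicate 2 (0.143), or with scaling by library size only (0.105), within an edgeR and DESeq2 range of 0.00148 to 1 over the alternatives. HMGB1 is also uncertain because of its copies. The table lists 48 HMGB1 pseudogene rows, 44 of them with counts, which together held 80.9% as many counts as HMGB1 in CP+siNC and 77.7% in CP+siNAT10. HMGB1P5 on chromosome 3 had the most counts of these, at 673 ± 31.9 and 582 ± 8.75 CPM (SD, n = 3 libraries each). If these copies are close in sequence to the parent mRNA, which was not checked here, reads could have been shared among them. With the pseudogene counts added to each parent gene, an alternative chosen after seeing the data, HMGB1 was at 1942, 1862 and 1768 CPM in CP+siNC and 1669, 1646 and 1758 CPM in CP+siNAT10. These groups were separate by a narrow gap, with a log2 fold change of -0.14 (SE 0.0371, edgeR adjusted p = 0.00353). For HMGB2, TMPO and HMGA1 the pseudogene rows held at most 1.94% as many counts as the gene.

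The HMGA genes encode small proteins with AT-hooks, which bind the minor groove of AT-rich DNA and help build senescence-associated heterochromatin foci. HMGA1 (ENSG00000137309, chromosome 6 from 34236873 to 34246231) was at 265, 287 and 280.5 CPM in CP+siNC and at 258, 259 and 274 CPM in CP+siNAT10. CP+siNC replicate 1 fell within the range of the CP+siNAT10 libraries. The log2 fold change of -0.07 (95% confidence interval -0.15 to 0.00) did not pass, with an edgeR adjusted p of 0.101. It did pass without CP+siNC replicate 1 (log2 fold change -0.11, adjusted p = 0.0198) and without CP+siNAT10 replicate 3 (-0.10, adjusted p = 0.0446), within a range of 0.0198 to 1 over the alternatives, so these libraries decide the call. HMGA2 (ENSG00000149948, chromosome 12 from 65824460 to 65963410) is an oncofetal gene and a textbook target of let-7 microRNAs. Its libraries were at 53.9, 57.4 and 57.0 CPM in CP+siNC and at 46.0, 43.2 and 44.8 CPM in CP+siNAT10. The groups were clearly separate, with a log2 fold change of -0.33 (SE 0.0444, edgeR adjusted p = 5.33e-07). Antisense genes over HMGA2, HMGA2-AS1 and RPSAP52, held 2.52% and 1.05% as many counts as HMGA2 itself.

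H2AX (ENSG00000188486, chromosome 11 from 119093874 to 119095449) encodes the histone variant that ATM, ATR and DNA-PK phosphorylate around DNA breaks. Its level was 44.0, 46.1 and 50.9 CPM in CP+siNC and 53.4, 52.3 and 54.8 CPM in CP+siNAT10. CP+siNC replicate 3 was close to the CP+siNAT10 range without entering it. The log2 fold change was 0.19 (SE 0.0484, edgeR adjusted p = 0.00197). When edgeR's glmTreat tested changes against a fold of 1.2, LMNB2, LBR and HMGB2 passed. That is 3 of the 10 genes, beside 2910 of the 19874 tested genes. LMNB1, LMNA, TMPO, HMGB1, HMGA2 and H2AX lost their calls. The direction of each of the 10 genes was the same under all 16 alternatives.

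Promoter sequences were examined because LMNB1, LMNB2, LMNA and H2AX were higher together. The RefSeq promoter table (GRCh38.p14) matched 8 of the 10 genes with 15 annotated starts, and HMGB2 and HMGA2 were not matched. The 250 bases before each start were searched on both strands for CCAAT, for the cell cycle element CHR (TTTGAA or TTCGAA), for E2F-like sites (TTTCCCGC, TTTGGCGC or TTTCGCGC) and for TATAAA. The 20 matches lay at 18 distinct sites, since the windows of the TMPO starts overlap and hold the same CCAAT letters, and no site shared a base with a different site. CCAAT was found before 8 of the 15 starts, in H2AX, HMGA1, HMGB1, LMNA, LMNB1 and TMPO, against 32% of all 35116 promoters searched over the same length. With the overlapping TMPO windows merged, 7 of 14 windows held it, while overlaps among all promoters were not merged. Genes with it were thus among those that rose and those that fell. For HMGA1, HMGB1 and LMNB1, CCAAT lay only before later starts, and the window before the first start held none. CHR letters occurred before 3 of the 15 starts, in H2AX, HMGB1 and LMNB2 (14.3% of all promoters), an E2F-like site before 1 of 15, in LMNA (2.32%), and TATAAA before 1 of 15, in H2AX (10.7%). LBR had none of these letters in its window. The stretches holding the matches of H2AX and LMNA are shown because each has matches to more than a single motif and lies outside the annotated genes of GENCODE 29. The H2AX stretch is chr11:119095486-119095710 on the minus strand, from 245 to 21 bases before the start, and the LMNA stretch is chr1:156082422-156082562 on the plus strand, from 151 to 11 bases before it. Capitals mark, in H2AX, CCAAT on either strand at 240, 153, 81 and 67 bases before the start, CHR on the opposite strand at 164 and TATAAA at 31, and in LMNA, CCAAT at 146 and TTTCCCGC at 23. A match is a description of letters and not a measured binding site.
H2AX: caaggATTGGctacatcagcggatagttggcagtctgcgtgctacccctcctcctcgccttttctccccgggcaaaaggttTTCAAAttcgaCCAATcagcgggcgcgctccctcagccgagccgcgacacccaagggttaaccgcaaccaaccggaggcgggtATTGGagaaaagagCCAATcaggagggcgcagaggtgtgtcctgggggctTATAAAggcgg
LMNA: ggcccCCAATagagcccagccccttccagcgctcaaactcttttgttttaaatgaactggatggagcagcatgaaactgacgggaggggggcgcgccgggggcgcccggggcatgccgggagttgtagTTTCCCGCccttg

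The levels of the 10 genes were ordered as CPM per kilobase of the deposited gene length, since CPM and shares of counts also depend on gene length. In CP+siNC the order was HMGB2 at 584 ± 18.4 CPM per kb, HMGB1 at 133 ± 6.94, HMGA1 at 119 ± 4.98, LMNB2 at 62.0 ± 1.19, TMPO at 58.5 ± 1.07, LMNB1 at 43.9 ± 1.64, LMNA at 33.6 ± 0.322, H2AX at 29.5 ± 2.23, LBR at 12.7 ± 0.263 and HMGA2 at 3.72 ± 0.127 CPM per kb (SD, n = 3 each). Levels thus spanned 157-fold from HMGA2 to HMGB2, and no neighbours in this order overlapped in CP+siNC. Without the gene length the span was 30.0-fold, and H2AX was lowest, at 47.0 CPM in CP+siNC beside 56.1 CPM for HMGA2. The order was the same in CP+siNAT10, where TMPO at 50.5 ± 0.497 CPM per kb and LMNB1 at 49.6 ± 1.04 CPM per kb (SD, n = 3 each) overlapped and LMNB2 stood clear of TMPO at 79.6 ± 0.913 CPM per kb. If the length in the table covers all annotated exons, which was not checked, a gene with long rarely used exons is placed too low. The length given for H2AX, 1592 bases, is longer than its span in the same row, as in 469 of the 62754 rows, so its place depends on an uncertain length.

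**Figure D3:**
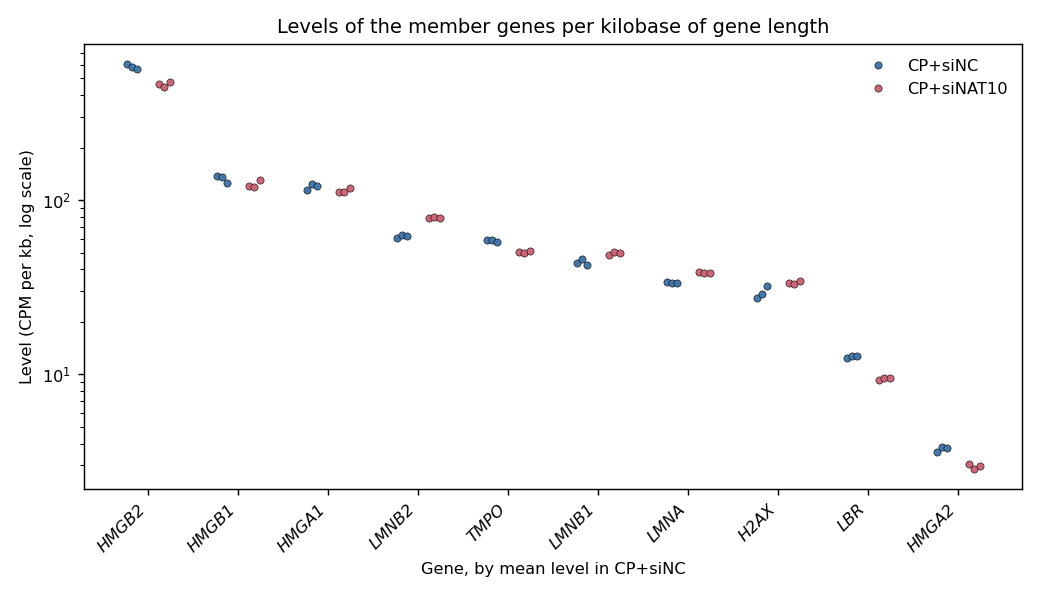
Levels per kilobase of gene length (vertical axis, log scale, CPM per kb) are plotted for each library, with genes ordered by their mean in CP+siNC (blue) beside CP+siNAT10 (red). HMGB2 leads at 584 CPM per kb and HMGA2 is lowest at 3.72 CPM per kb, and TMPO and LMNB1 meet in CP+siNAT10.

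Ratios taken within a library show how unequally related genes moved. They are on the CPM scale, without gene length, and are read between the groups only. LMNB1 relative to its receptor LBR was 2.24, 2.28 and 2.12 in CP+siNC and 3.34, 3.39 and 3.31 in CP+siNAT10. Every CP+siNAT10 library had the higher ratio. LMNB2 relative to LMNB1 went from 2.10 ± 0.0624 to 2.38 ± 0.0226 (SD, n = 3 libraries each) without overlap, whereas LMNA relative to LMNB1, at 1.72 ± 0.0767 and 1.74 ± 0.0505, overlapped. HMGB2 relative to HMGB1 was 1.37 ± 0.0389 in CP+siNC and 1.17 ± 0.0238 in CP+siNAT10, and HMGA2 relative to HMGA1 was 0.202 ± 0.00208 and 0.169 ± 0.00764 (SD, n = 3 libraries each). Both pairs were separate between the groups. With 3 libraries against 3, a two-sided exact permutation test cannot give a p below 0.1, so these ratios are given as values.

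**Figure D4:**
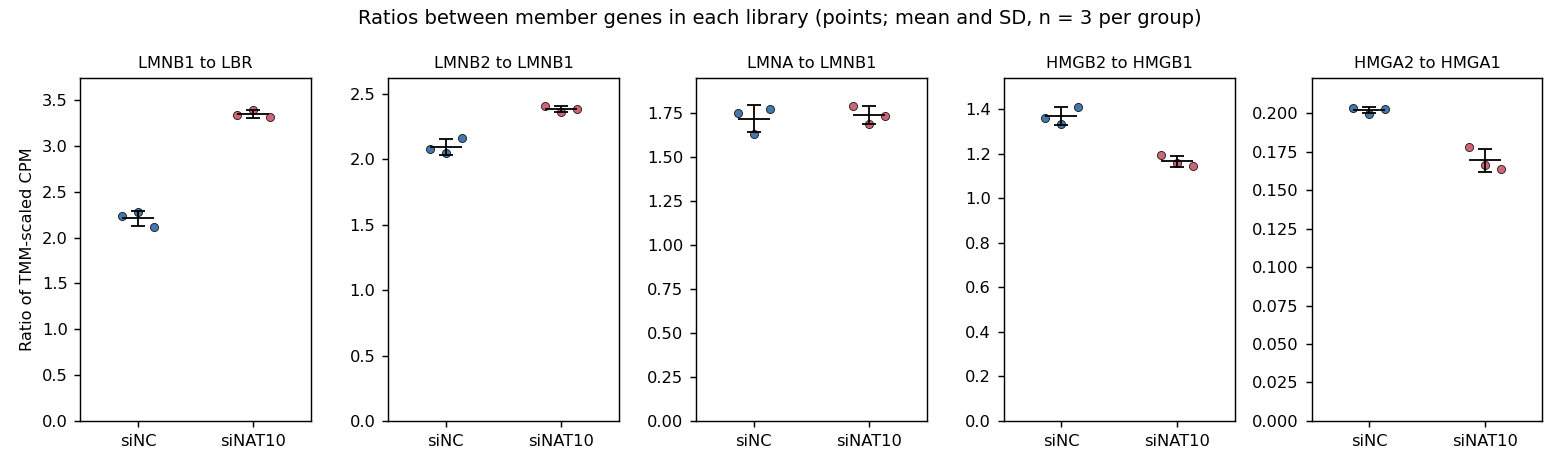
Each panel plots the ratio of a pair of genes (vertical axis, ratio of TMM-scaled CPM, starting at 0) in the 3 libraries of each group, with a bar for the mean and SD. LMNB1 to LBR rises from about 2.21 to 3.35, and LMNA to LMNB1 overlaps between the groups.

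B-type lamins and prelamin A are farnesylated, trimmed and methylated by a short enzyme series. Of its 5 genes, 4 were higher and 1 was lower, where 44.1% of all tested genes were called, 21.8% higher and 22.3% lower. The median log2 fold change was 0.24, beside 0.01 over all tested genes. ZMPSTE24, the protease that cleaves prelamin A, was the gene that fell, from 68.4 ± 2.96 to 46.6 ± 1.94 CPM (SD, n = 3 libraries each), with a log2 fold change of -0.55 (edgeR adjusted p = 3.53e-11). The methyltransferase gene ICMT rose by 0.30 and the farnesyltransferase subunit genes FNTA and FNTB by 0.18 and 0.46 on the log2 scale, and these 3 lost their calls against a fold of 1.2. The other proteins of the nuclear envelope were mixed. Of 17 tested genes out of 18, 2 were higher, 8 lower and 7 not called, with a median of -0.07. SYNE2, which encodes the outer membrane protein nesprin-2, rose from 24.2 ± 1.28 to 43.2 ± 1.90 CPM (SD, n = 3 libraries each), a log2 fold change of 0.84, while its relative SYNE1 changed by -0.63. NEMP1, an inner membrane protein gene, and TOR1AIP2, which encodes the torsin activator LULL1, had log2 fold changes of -0.56 and -0.42.

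Among 10 other high mobility group genes, 2 were higher, 7 lower and 1 not called (44.1% of all tested genes were called, 22.3% lower), with a median log2 fold change of -0.23 beside 0.01 over all tested genes. The nucleosome-binding HMGN genes led the falls. HMGN5 went from 209 ± 23.7 to 118 ± 2.82 CPM (SD, n = 3 libraries each), with a log2 fold change of -0.82 (edgeR adjusted p = 1.11e-13), followed by HMGN4 at -0.48, HMGN3 at -0.46 and HMGN2 at -0.32. The call of HMGN2 was lost against a fold of 1.2. Of the 24 genes of heterochromatin proteins and their chaperones, 9 were higher, 8 lower and 7 not called, with a median of 0.04. MACROH2A2, a macroH2A histone variant gene found in senescence-associated heterochromatin foci, was the only gene of any list past both limits. Its level was 12.2, 12.6 and 13.7 CPM in CP+siNC and 23.8, 26.5 and 28.8 CPM in CP+siNAT10, with a log2 fold change of 1.05 (SE 0.0723, edgeR adjusted p = 1.40e-12). Its place past the fold limit depended on a single library, since the log2 fold change was 0.98 without CP+siNAT10 replicate 3, though it was called higher in all alternatives. CABIN1 and UBN1, subunits of the HIRA histone chaperone complex, rose by 0.58 and 0.30, the second of which lost its call against a fold of 1.2, and CBX3, which encodes HP1 gamma, changed by -0.34. HIRA itself did not pass (log2 fold change 0.09, edgeR adjusted p = 0.246).

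Of 20 genes that act on or beside phosphorylated H2AX or encode H2A.Z variants, 7 were higher, 5 lower and 8 not called. Among all tested genes, 21.8% were higher and 22.3% lower. The median log2 fold change of these 20 genes was 0.01, beside 0.01 over all tested genes. RAD50, a subunit of the break-sensing MRN complex, rose from 61.7 ± 2.69 to 97.4 ± 4.27 CPM (SD, n = 3 libraries each), a log2 fold change of 0.66 (edgeR adjusted p = 2.59e-13). The other subunit genes of this complex, MRE11 and NBN, did not pass. The kinase gene ATM rose by 0.48. Of 9 genes of senescence arrest, 4 were higher, 2 lower and 3 not called, with a median of 0.06. CDKN1A, which encodes the CDK inhibitor p21, fell from 69.5 ± 2.02 to 52.0 ± 2.25 CPM (SD, n = 3 libraries each), with a log2 fold change of -0.41 (edgeR adjusted p = 4.79e-09). CDKN2A, the gene of p16 and ARF, was at 83.4 ± 4.08 and 85.0 ± 0.984 CPM (SD, n = 3 libraries each) and did not pass (log2 fold change 0.03, edgeR adjusted p = 0.615). GLB1, also in this list, was higher (log2 fold change 0.21, edgeR adjusted p = 0.0318). RB1, the retinoblastoma gene, was lower (log2 fold change -0.25, edgeR adjusted p = 0.00229). Its relatives RBL1 and RBL2 and the CDK inhibitor gene CDKN1B rose by 0.83, 0.33 and 0.31, and RBL2 and CDKN1B lost their calls against a fold of 1.2.

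Markers of cycling cells were mostly but not uniformly lower. Of 20 such genes, none of them among the 10 genes, 2 were higher, 14 lower and 4 not called (21.8% of all tested genes were higher and 22.3% lower), with a median log2 fold change of -0.22 beside 0.01. Their summed level was 7254, 7038 and 6998 CPM in CP+siNC and 6238, 6268 and 6324 CPM in CP+siNAT10, with the most counts from MKI67. RRM2, a ribonucleotide reductase subunit gene, fell from 203 ± 3.15 to 123 ± 5.49 CPM (SD, n = 3 libraries each), a log2 fold change of -0.73 (edgeR adjusted p = 1.01e-15), and FOXM1, CDK1 and CCNB1 changed by -0.47, -0.46 and -0.43. The genes that rose, named after their values were seen, were MCM5 by 0.52 and TPX2 by 0.13. LMNB1, HMGB2, TMPO and LBR are themselves transcribed more in dividing cells, and the part of cell cycling in their changes was not tested. Of 5 oncofetal genes that share let-7 control with HMGA2, 4 were tested, with 1 higher, 2 lower and 1 not called and a median of -0.31. The gene not called, LIN28A, had only 9 to 13 counts per library, and with 4 genes the median depends on it. IGF2BP2 rose by 0.45 on the log2 scale, whereas IGF2BP3 and IGF2BP1 changed by -0.51 and -0.30, the latter without a call against a fold of 1.2. LIN28B had no count in any library.

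The genes whose pattern over the 6 libraries was most like that of LBR, among 12303 others with a mean of at least 5 CPM, were BICD2, CLDN1 and PARD6B, with Pearson correlations of 0.9998, 0.9992 and 0.9992 of log2 CPM. They fell with log2 fold changes of -0.38, -1.10 and -1.09. All 6 points come from the same pair of groups, so the correlation mostly restates the group difference, and 1602 of the genes compared exceeded 0.95.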

How the data were processed

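The authors sequenced stranded mRNA libraries of 6 samples and deposited counts per gene without normalization. The submitters' processing notes name Trimmomatic 0.36, STAR 2.5.3a, featureCounts of Subread 1.5.1, edgeR 3.12.1 and GRCh38. The paper's methods describe a kit with molecular identifiers meant for removing duplicates, but whether these counts were merged by them, the annotation release and the strand setting are not given in the sources used here. In R 4.3.3 with edgeR 4.0.16, filterByExpr kept genes by a count of 10 and a total of 15, TMM set the library sizes, and the quasi-likelihood test was adjusted by Benjamini-Hochberg over 19874 genes. The SE is the log2 fold change divided by the root of F. The code was tested on simulated data. Alternatives were other scalings and filters, DESeq2 1.42.0, edgeR's exact test and glmTreat, a replicate block, leaving out each library and, added after the data were seen, pseudogene counts. Genes named from a list of related genes are at most 4 per list, those with the smallest p among genes that passed, together with CDKN1A and CDKN2A. MCM5, TPX2, RB1, GLB1, HIRA, MRE11 and NBN were named after their values were seen. LIN28A and LIN28B were named for their few or absent counts, and markers for their level or change. A planned list gene was left out of names and counts. Members and lists were chosen with earlier results of these data known. Correlations left out genes below a mean of 5 CPM. Motifs were searched with Python 3.11.15, and plots used matplotlib 3.10.9.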

Additional observations from a re-analysis of the deposited data

How the results depend on the processing

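Over the 16 alternatives, LMNB2, LBR, HMGB2 and NAT10 stayed past the limit in the same direction, with log2 fold changes of 0.34 to 0.40, -0.44 to -0.39, -0.37 to -0.30 and -0.85 to -0.79. LMNB1, LMNA, TMPO, HMGA2 and H2AX did so in 15, the exception being glmTreat against a fold of 1.2, which asks for a larger change. That test passed 3 of the 10 genes (1 higher, 2 lower), beside 2910 of the 19874 tested genes (1319 higher, 1591 lower). HMGB1 kept its call in 10 of 16, among them the pseudogene counts, added after the data were seen. Leaving out each library in turn, 8 to 10 of the 10 genes and 7822 to 8168 of all genes were called. CDKN2A, never called, ranged with a library left out from -0.010 without CP+siNC replicate 3, a reversed sign, to 0.060 without CP+siNC replicate 2, and was highest at 0.065 with scaling by library size only. The cause was not tested. Genes past both limits numbered 754 with a looser filter and 201 with a stricter filter, which test more and fewer low genes. Without the gene length, levels spanned 30.0-fold in place of 157-fold. The replicate block called 8526 genes (4208 higher, 4318 lower, 461 past both limits) and 9 of the 10 (4 higher, 5 lower). The deviations of same-numbered libraries correlated at 0.00958, 0.0654 and -0.205, and not every library correlated best with its own number, so the numbers were not taken to pair the samples. Scaling by library size only gave 57.2% of calls higher, against 49.4%.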

Other observations

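The longest 3′ UTR of each gene in GENCODE 29 was searched for the heptamers GACTATC or ACTATCA or CATATTC, which were picked because genes carrying them were lower in these same libraries, so the counts are a description and support nothing. HMGA2 and HMGB1, whose 3′ UTRs are the longest of these genes at 7424 and 4656 bases, each hold the last heptamer 1 time. The other 8 genes hold none of the 3, and length was not taken into account. Of 13138 tested protein-coding genes, 17.3% hold at least 1. The median log2 fold change was -0.08 over these and 0.03 over the rest.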
